A study of Mus musculus with 10 samples.

Results

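Transcripts of 43 genes of the cell cycle and cell division were measured in 10 bulk RNA sequencing libraries of sorted mouse stromal cells. The genes were chosen by symbol from a fixed list. All 43 were among the 14995 genes of the count table. They fall into 10 roles: 2 markers of proliferating cells, 5 G1 cyclins, 3 mitotic cyclins, 4 cyclin-dependent kinases (CDKs), 9 replication genes, 3 genes of nucleotide supply, 4 genes of the spindle checkpoint and the anaphase-promoting complex, 9 spindle and kinetochore genes, the transcription factor E2f1 and 3 CDK inhibitors. Skin Ebf2+ cells and skin Ebf2- PαS cells (CD140a+ and Sca1+) came from the dorsal skin of FVB/N mice aged 8 to 12 weeks (3 libraries each, 3 mice per the design text). Bone marrow mesenchymal stem cells (Sca1+ and CD51+) came from C57BL/6 mice aged 8 to 10 weeks (4 libraries, 4 mice). All 3 populations were sorted fresh after enzyme digestion from cells negative for CD45, TER119 and CD31. No group carried a stated treatment. The sources used here do not say how Ebf2 was read in the sort. Tissue, strain and sort markers differ together between skin and bone marrow and cannot be told apart. The labels credit bone marrow 1 to 3, and not bone marrow 4, to an earlier study.

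A cell that enters division first makes D-type cyclins, which activate Cdk4 and Cdk6 and release E2F transcription factors from the retinoblastoma protein. E2F factors then switch on E-type cyclins, the replication machinery and the enzymes that make DNA precursors, and a later wave of mitotic cyclins, kinases and spindle proteins follows. Inhibitors such as p21 (Cdkn1a) and p27 (Cdkn1b) hold the kinases back. Mesenchymal stem and stromal cells of adult tissue are largely quiescent and divide mainly in growth, repair or culture. In bulk RNA, fewer dividing cells and less of these transcripts per cell cannot be told apart.

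Library totals ran from 9830418 counts in skin Ebf2+ 1 to 39422062 in bone marrow 3. A floor of 3 counts corresponded to 0.0901 to 0.349 CPM, the usual scaling of counts to library size, here with edgeR's trimmed mean method (TMM). Floors and intervals cover counting error only, since PCR copies carry no molecular identifier here and are no separate molecules. Bone marrow 1 and 4 nearly coincided: the squared difference of their counts averaged 3.19 times the sampling variance per gene, against 82.7 to 1029 in the other pairs. Whether they share RNA or cDNA was not tested. Because the labels list them as separate samples, the tests count 4 bone marrow libraries. Their difference was above counting noise on average (median 0.938), which does not show that they come from separate mice. If they do not, the tests understate the spread of bone marrow. The comparisons are also given with these libraries summed or left out. The skin libraries numbered 3 were the next closest pair (82.7). Defining genes of mesenchymal cells (Pdgfra, Pdgfrb, Col1a1, Col1a2, Col3a1, Dcn, Lum, Thy1) had reads in every library, at uneven levels. Thy1 stood at 11.8 and 8.56 CPM in skin Ebf2+ 3 and skin Ebf2- 3 and at 248 to 648 CPM in every other library. Col3a1 ran from 5048 CPM in bone marrow 4 to 55409 CPM in skin Ebf2- 3. Leukocyte markers (10 of 14 listed were in the table) summed to 1278 CPM in skin Ebf2- 2, where none of the 10 was at 0 and Ptprc and Cd3e stood at 61.9 and 708 CPM. The sum ran from 14.2 to 19.4 CPM in the other 2 skin Ebf2- libraries. It ran from 4.42 to 95.1 CPM in skin Ebf2+ and from 8.58 to 20.3 CPM in bone marrow. In skin Ebf2+, Ptprc was at 0 in libraries 1 and 2, but Cd74 and Cd79a stood at 69 and 25.4 CPM in library 2. In bone marrow Ptprc was below 1 CPM, while Lyz2 reached 18.3 CPM in library 3 and Fcer1g 4.55 CPM in library 1. Keratinocyte markers (11 of 11 in the table) summed to 244, 22.1 and 1209 CPM in skin Ebf2+ 1 to 3. They summed to 299 to 1108 CPM over skin Ebf2- and 10.4 to 19.8 CPM over bone marrow. There Krt14 and Epcam had 0 reads, and Sfn stood at 7.69 to 11 CPM. Of the 43 genes, 16 share exon bases with another annotated gene, 15 of them with one on the opposite strand. Whether counting used strand is not stated in the sources used here, so such reads cannot be told apart.

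The division genes were most unevenly detected in skin Ebf2+. Of the 43 genes, 19 had 0 reads in skin Ebf2+ 1 and 17 in skin Ebf2+ 2, whereas skin Ebf2+ 3 had reads of every one. In skin Ebf2-, 3 genes had 0 reads in library 1 and none in libraries 2 and 3. In bone marrow, 3, 0, 1 and 13 genes had 0 reads in libraries 1 to 4 (6.98, 0, 2.33 and 30.2%). Over all genes these shares were 10.2, 4.66, 5.4 and 13.6%. Over all 14995 genes, 14.9% and 16.8% were at 0 in skin Ebf2+ 1 and 2, against 44.2% and 39.5% of the division genes. In skin Ebf2+ 3 the share over all genes was 2.36%. Not every role was low in skin Ebf2+ 1 and 2. The replication genes summed to 115, 219 and 156 CPM in skin Ebf2+ 1 to 3, and the spindle and kinetochore genes to 2.09, 4.53 and 34.6 CPM. The 2 skin Ebf2+ libraries without reads of many division genes also detected fewer genes in general and held fewer keratinocyte transcripts than skin Ebf2+ 3. The part of either in the missing reads was not tested.

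**Figure D1:**
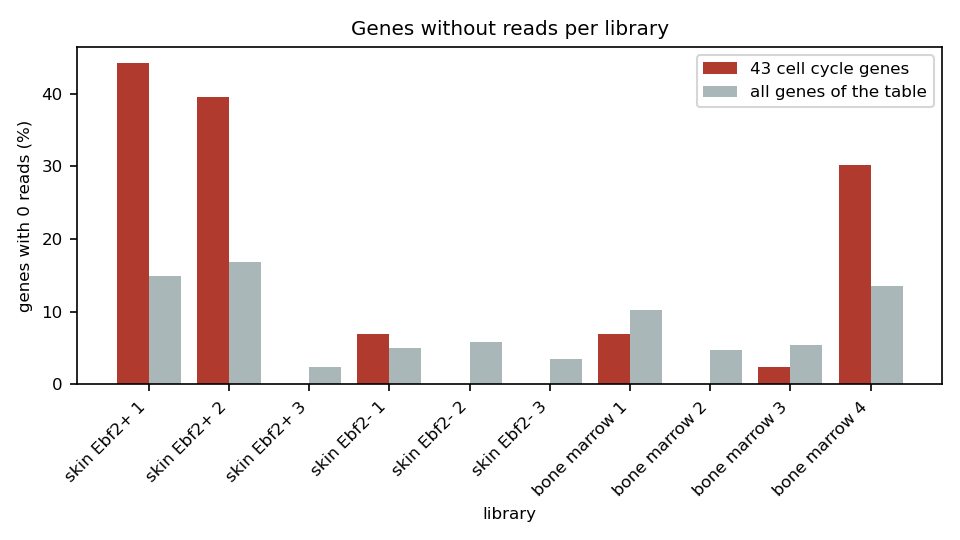
Share of genes with 0 reads in each library (percent), for the 43 cell cycle genes (red bars) and all 14995 genes of the table (grey bars). The division genes reach 44.2% in skin Ebf2+ 1, 39.5% in skin Ebf2+ 2 and 30.2% in bone marrow 4, and lie at or below 6.98% in the other 7 libraries.

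The 12 genes at 0 reads in both skin Ebf2+ 1 and 2 came from every phase: Ccne1 (cyclin E1, entry into S phase), Cdc6, Cdc45 and Mcm6 (replication), Cdk1 and Ccnb1 (the mitotic kinase and its cyclin), Bub1 and Bub1b (spindle checkpoint), Aurka, Aurkb, Kif20a and Cenpf (spindle, cytokinesis and kinetochore). They make up 27.9% of the division genes, against 8.17% of all genes at 0 in both libraries. A further 18 division genes had reads in all 10 libraries (41.9%, against 69.7% of all genes). They were the D cyclins, Ccne2, Cdk2, Cdk4, Mcm3, Mcm4, Mcm7, Pcna, Rrm1, Tyms, Birc5, Mki67, E2f1 and the 3 inhibitors. Bone marrow 4 had 0 reads of 13 genes, and bone marrow 1, almost the same in its counts, had 0 to 8 reads of the same genes.

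**Figure D2:**
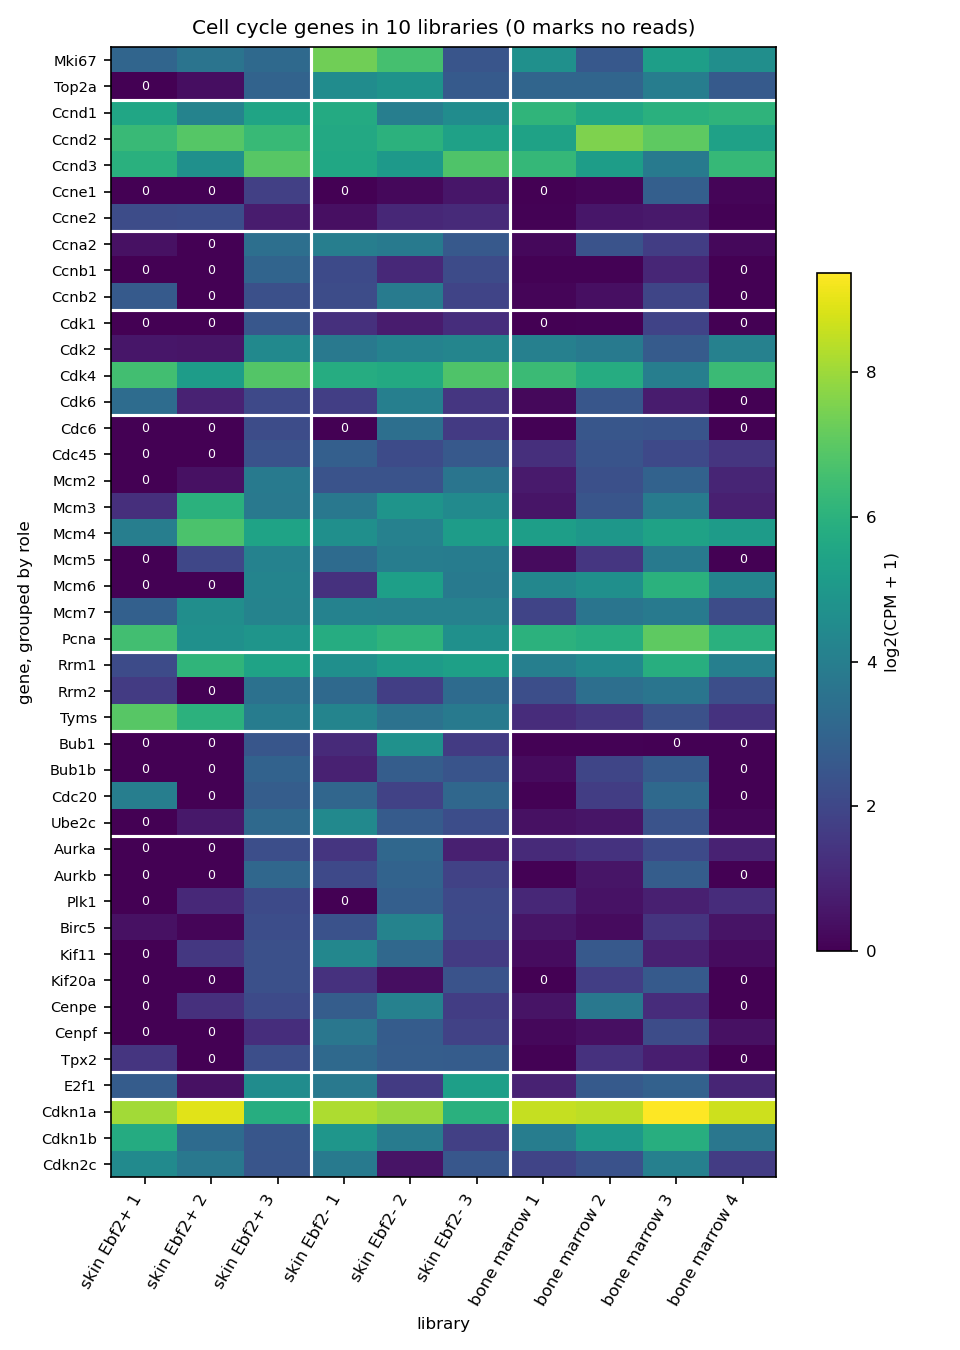
Levels of the 43 genes (rows, grouped by role) in the 10 libraries (columns), as log2(CPM + 1), with 0 marking genes without reads. Cdkn1a is bright in every library, and the rows from Bub1 to Tpx2 are mostly dark in skin Ebf2+ 1 and 2 and in bone marrow 1 and 4.

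Promoters of cell cycle genes are known for a few short elements: E2F sites, the cell cycle homology region (CHR), through which the DREAM and MuvB complexes act, and CCAAT boxes bound by NF-Y. The last 150 bases before the RefSeq transcription start (GRCm38.p6, 5′ to 3′) are given for Cdk1 and Mcm6, which had 0 reads in skin Ebf2+ 1 and 2, and for Mki67, Cdk4 and Tyms, which had reads in every library. Capitals mark CHR matches (TTTGAA or TTCGAA), E2F matches (TTTGGCGC, TTTCCCGC, TTTCGCGC or TTTGCCGC) and CCAAT, on either strand.
Cdk1, chr10:69352913-69353062, - strand: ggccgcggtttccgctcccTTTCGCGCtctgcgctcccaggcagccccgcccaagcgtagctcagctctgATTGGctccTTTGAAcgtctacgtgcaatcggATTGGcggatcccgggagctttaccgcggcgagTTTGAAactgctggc
Mcm6, chr1:128359706-128359855, - strand: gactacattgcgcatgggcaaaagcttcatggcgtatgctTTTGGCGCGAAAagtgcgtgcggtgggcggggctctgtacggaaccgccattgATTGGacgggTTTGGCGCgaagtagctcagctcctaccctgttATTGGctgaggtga
Mki67, chr7:135716380-135716529, - strand: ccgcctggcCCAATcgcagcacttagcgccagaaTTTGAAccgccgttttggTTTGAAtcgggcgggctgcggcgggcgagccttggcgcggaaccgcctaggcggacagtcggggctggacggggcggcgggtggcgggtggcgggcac
Cdk4, chr10:127063385-127063534, + strand: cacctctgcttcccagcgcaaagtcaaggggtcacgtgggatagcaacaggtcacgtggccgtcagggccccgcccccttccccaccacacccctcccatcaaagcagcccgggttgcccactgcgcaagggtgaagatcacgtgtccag
Tyms, chr5:30073626-30073775, - strand: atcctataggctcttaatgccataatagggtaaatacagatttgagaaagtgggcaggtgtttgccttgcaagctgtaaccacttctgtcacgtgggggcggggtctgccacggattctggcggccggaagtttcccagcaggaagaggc
Within 250 bases before the start, Cdk1 held 2 CHR, 1 E2F and 3 CCAAT matches. Mcm6 held 3 E2F matches, of which the pair 110 and 106 bases before the start share bases, and 2 CCAAT matches. Mki67 held 2 CHR and 3 CCAAT matches. These letters were not found in the windows of Cdk4 and Tyms. RefSeq gave promoters for 35 of the 43 genes: 11 held a CHR match (31.4%, against 19.6% of 27025 genes with a promoter), 6 an E2F match (17.1% against 2.16%) and 26 a CCAAT match (74.3% against 37.5%). Of the 12 genes at 0 in skin Ebf2+ 1 and 2, 10 had a promoter in the table and 9 of these held at least 1 match. Of the 18 with reads in every library, 14 had a promoter and 8 held a match. Ccne1, at 0 in skin Ebf2+ 1 and 2, held none, and Mcm3, with reads in every library, held 3 CCAAT matches. The share of all genes with any match was not determined, and a link between matches and missing reads was not tested. A match describes letters only, not a bound site.

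Within skin, Ebf2+ cells were set against Ebf2- cells of the same tissue and strain. Mki67, the Ki-67 marker of proliferating cells, had the lowest p, with a lower mean in skin Ebf2+. It stood at 7.32, 11.1 and 8.08 CPM in skin Ebf2+ 1 to 3 and 162, 96.3 and 4.55 CPM in skin Ebf2- 1 to 3. Skin Ebf2- 1 and 2 were far above the rest, and skin Ebf2- 3 was below all 3 Ebf2+ libraries, so the groups overlapped. Cenpf, a kinetochore protein of G2 and mitosis, stood at 0, 0 and 1.33 CPM against 12.1, 5.66 and 2.59 CPM, without overlap. Tyms, thymidylate synthase, went the other way, at 122, 63 and 14.2 against 17.7, 10.4 and 13.3 CPM, with skin Ebf2+ 3 inside the range of skin Ebf2-.

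None of these differences passed. The log2 fold change of Ebf2+ over Ebf2- was -3.32 ± 1.07 for Mki67 (SE; edgeR's quasi-likelihood test, unadjusted p = 0.0123, adjusted p = 0.999856). For Tyms it was 2.27 ± 0.82 (unadjusted p = 0.0215, edgeR adjusted p = 0.999856) and for Cenpf -3.90 ± 2.05 (unadjusted p = 0.089, edgeR adjusted p = 0.999856). The fitted value of Cenpf rests on a group with reads in 1 library only, depends on edgeR's prior count and is no bound. Of the 42 division genes tested (Ccne1 did not pass the filter on low counts), edgeR called 0 at an adjusted p of 0.05, as it did over all 13477 genes (0.0% called). At an unadjusted p of 0.05 it called 2, Mki67 lower and Tyms higher, against 2.55% of all genes. DESeq2 called 0 (0.861% of all genes) and limma-voom 0 (0.0%). When the replicate number, assumed to pair the skin libraries, entered as a block, edgeR called 0 (0.0594% of all genes) and limma-voom 0 (0.156%). DESeq2 with the block called 3: Cenpf, the topoisomerase Top2a and Mcm6, a subunit of the replicative helicase, each lower in skin Ebf2+ (2.74% of all genes were called). The fitted change was negative for 28 of the 42 genes and their median was -0.67, against 0.01 over all genes tested. All 9 spindle and kinetochore genes and all 3 mitotic cyclins had negative values, and the 4 G1 cyclins tested and the 3 inhibitors positive ones. The groups did not overlap for Ccnd2 (higher, 1 gene, against 3.0% of all genes) or for Cenpf and Tpx2 (lower, 2 genes, against 3.72%). Beside these values, 14.9% and 16.8% of all genes were at 0 in skin Ebf2+ 1 and 2, and at most 5.88% in a skin Ebf2- library. Leukocyte markers summed to 14.2, 1278 and 19.4 CPM and keratinocyte markers to 1108, 299 and 657 CPM in skin Ebf2- 1 to 3. Both sums overlapped with those of skin Ebf2+, as did the endothelial and erythroid sums. Mural markers, such as Myh11 and Acta2, separated the skin groups without overlap. They summed to 863, 3470 and 702 CPM for Ebf2+ libraries 1 to 3, against 172, 58.4 and 218 CPM for the Ebf2- libraries. What part any of these transcripts had in the result was not tested.

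Against bone marrow, 1 division gene passed in skin Ebf2+. This was Tyms (Entrez 22171, chromosome 5, 30038546 to 30073645 on GRCm38 in RefSeq), which makes the thymidine nucleotide for DNA. Tyms stood at 122, 63 and 14.2 CPM in skin Ebf2+ 1 to 3 and 1.27, 1.80, 3.97 and 1.60 CPM in bone marrow 1 to 4. Each skin Ebf2+ library was above each bone marrow library, with the spread within skin Ebf2+ running from 14.2 CPM in library 3 to 122 CPM in library 1. The mean was 66.4 ± 54.1 CPM (SD, n = 3) against 2.16 ± 1.22 CPM (SD, n = 4 with bone marrow 1 and 4 counted separately), and the log2 fold change 4.94 ± 0.81 (SE, edgeR quasi-likelihood, adjusted p = 0.0138). With bone marrow 1 and 4 summed the adjusted p from edgeR was 0.0535, without both it was 0.229, and with bone marrow 4 as the only library of its group 0.428. It was 0.0716 without skin Ebf2+ 1, 0.0587 without bone marrow 1 and 0.0545 without bone marrow 4, and limma-voom gave 0.0692. With a replicate block the adjusted p from edgeR was 0.109. That block joins skin and bone marrow libraries of different mice, so its value does not bear on the call. Over all 19 alternatives the log2 fold change was 4.16 or above, the adjusted p ran from 5.2e-09 to 0.428, and the call held in 11. The annotated pseudogene Tyms-ps was also in the table, at 26.1, 8.97 and 1.41 CPM in skin Ebf2+ 1 to 3 and at most 0.811 CPM in bone marrow. Reads that match a gene and its pseudogene alike cannot be assigned with certainty, so the level of Tyms is uncertain to that extent.

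Bub1 and Ccne2 followed Tyms by p in this comparison and did not pass. Bub1, a kinase of the spindle checkpoint, had 0 reads in skin Ebf2+ 1 and 2 but 4.71 CPM in library 3, and 1, 1, 0 and 0 reads in bone marrow 1 to 4. Its fitted log2 difference, 5.68 ± 2.20 (SE; edgeR adjusted p = 0.24), rested on skin Ebf2+ 3, depends on edgeR's prior count, and was -2.07 without that library. Ccne2, cyclin E2 of the entry into S phase, stood at 3.49, 3.66 and 0.627 CPM against 0.0489, 0.488, 0.571 and 0.050 CPM without overlap, and its fitted log2 difference was 3.12 ± 1.56 (SE; edgeR adjusted p = 0.385). It shares exon bases with Ints8 on the opposite strand, so part of its reads may belong to that gene. Over all genes edgeR called 0.923% in this comparison, 0.565% higher and 0.358% lower, and 1 gene called among 42 is read as no more than this background. At an unadjusted p of 0.05 it called 2 of the 42, against 14.6% of all genes. DESeq2 called 1 (7.61% of all genes). The count was 0 with limma-voom (1.54% of all genes), with bone marrow 1 and 4 summed (0.354%) and with a replicate block (0.461%). That block joins libraries of different mice. Positive values were found for 26 of the 42, with a median log2 fold change of 0.55 against 0.09 over all genes. Without skin Ebf2+ 3, or without both skin libraries numbered 3 (1.62% of all genes called), Mcm6 was called as well, lower in skin Ebf2+, where libraries 1 and 2 had 0 reads. The groups did not overlap for Tyms and Ccne2 (higher, against 6.07% of all genes) or for Ccnd1 and Mcm6 (lower, against 7.66%).

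**Figure D3:**
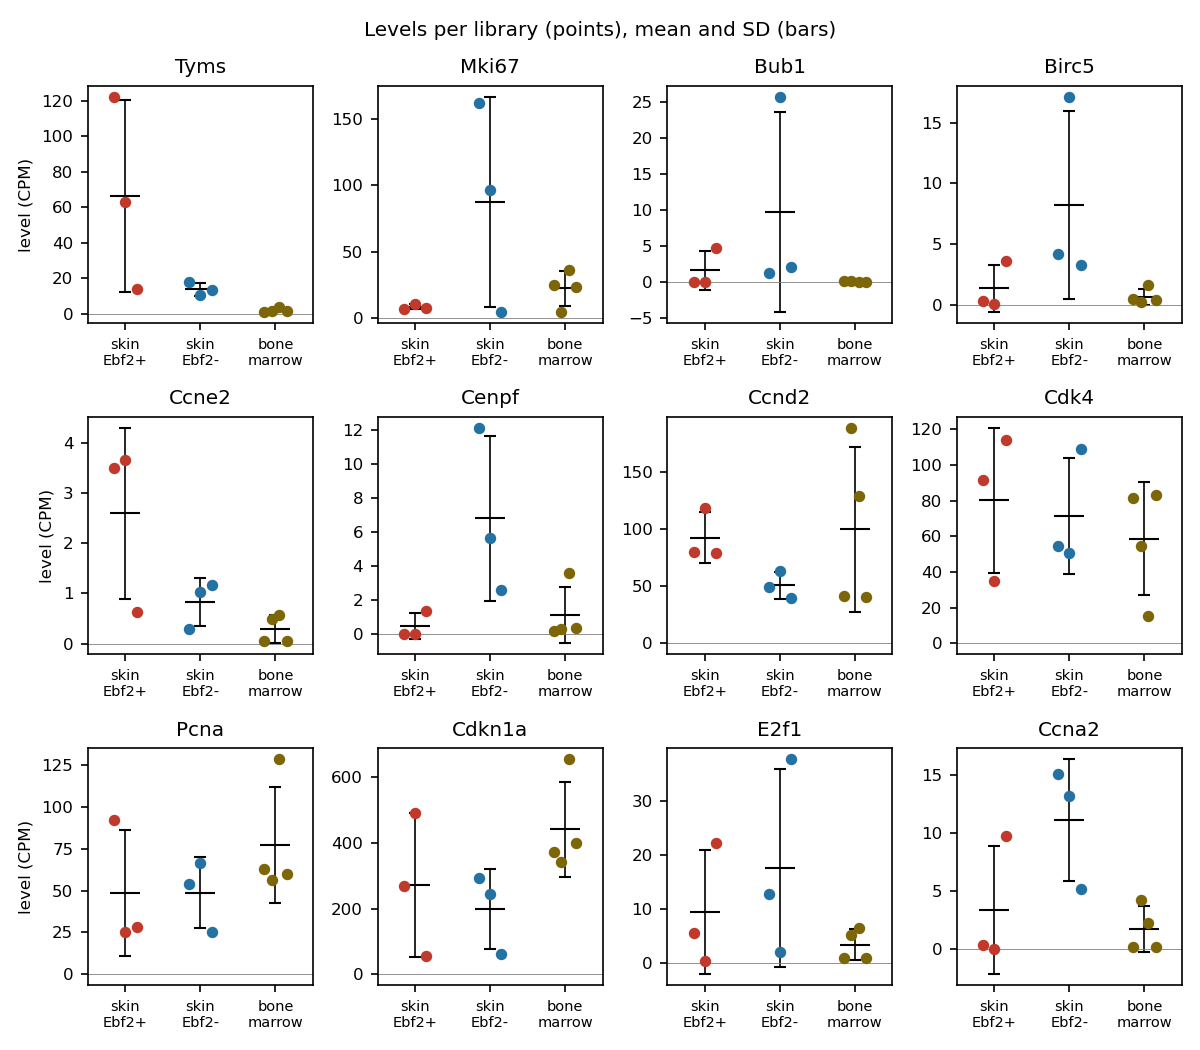
Levels (CPM) of 12 division genes in each library (points) of skin Ebf2+, skin Ebf2- and bone marrow, with the mean and SD of each group (black bars). Tyms is above bone marrow in every skin library, Mki67 is high in 2 of 3 skin Ebf2- libraries, and the Bub1 mean of skin Ebf2- is set by library 2, at 25.8 CPM.

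Skin Ebf2- cells had higher values than bone marrow for most division genes, and none passed. This comparison shares its bone marrow libraries with the previous one. Tyms stood at 17.7, 10.4 and 13.3 CPM in skin Ebf2- 1 to 3, above every bone marrow library, and its fitted log2 difference was 2.67 ± 0.74 (SE; edgeR adjusted p = 0.134). Bub1 stood at 1.17, 25.8 and 2.12 CPM, against at most 1 read in any bone marrow library, and its fitted log2 difference was 8.30 ± 2.44 (SE; edgeR adjusted p = 0.155). Its 416 reads in skin Ebf2-, 373 of them in library 2, against 2 in bone marrow give a ratio of 479 (exact 95% interval of the counting error 132 to 3972). Its 60 reads in skin Ebf2+, all in library 3, give 86.1 (22.8 to 727). Skin Ebf2- 2, with the highest Bub1 value, also held leukocyte markers at 1278 CPM in sum, whose part in the result was not tested. Without skin Ebf2- 2 the fitted log2 difference of Bub1 was 5.72 (edgeR adjusted p = 0.475, over all alternatives 0.00246 to 0.707). Birc5, survivin of the chromosomal passenger complex, stood at 4.17, 17.1 and 3.30 CPM against 0.440, 0.195, 1.65 and 0.400 CPM, without overlap (3.59 ± 1.54, SE; edgeR adjusted p = 0.36).

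Of the 42 division genes tested in skin Ebf2- against bone marrow, edgeR called 0, against 0.73% of all genes. At an unadjusted p of 0.05 it called 4, all higher in skin Ebf2-: Tyms, Bub1, Birc5 and Mki67 (over all genes, 12.2% in either direction). DESeq2 called 2, Tyms and Bub1 (adjusted p = 0.00887 and 0.00246, against 5.48% of all genes). Over all alternatives the adjusted p of Tyms ran from 0.00887 to 0.736. A fit of these 2 groups alone called Bub1 (1.87% of all genes) and limma-voom called 0 (2.02%). Values were positive for 34 of the 42, with a median log2 fold change of 1.11 against 0.06 over all genes. The 7 genes Tyms, Bub1, Birc5, Tpx2, Ccna2, Ccnb1 and Mcm7 were higher without overlap, 16.3% of the 43 against 9.46% of all genes. Cdkn1a was lower without overlap, 1 gene against 9.27% of all genes. Keratinocyte transcripts also separate all skin Ebf2- libraries from bone marrow, and their part in these values was not tested.

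**Figure D4:**
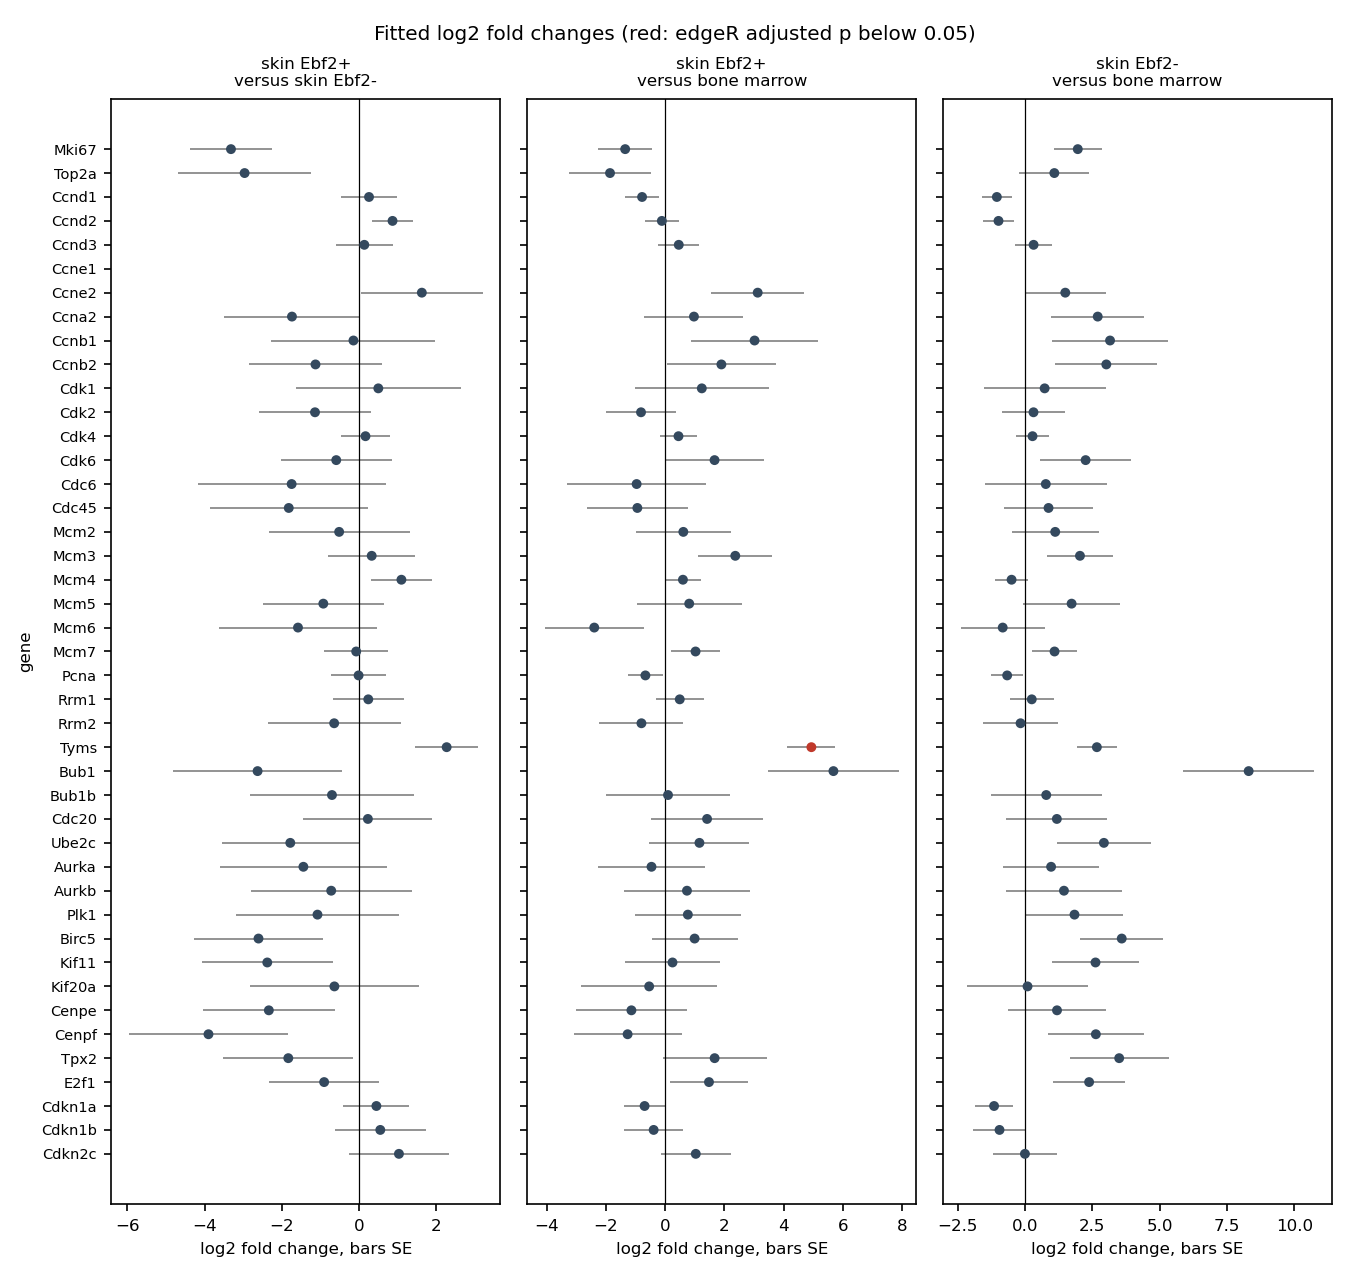
Fitted log2 fold changes of the division genes (points, edgeR) with their SE (bars) in the 3 comparisons, positive where the population named first is higher. Tyms against bone marrow in skin Ebf2+ is the one red point, and Ccne1, which did not pass the filter, has no value.

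Cdkn1a (p21), which blocks CDKs after stress or p53 activation, was the most abundant of the 43 transcripts per kilobase of exon in each group. It stood at 269, 492 and 55.6 CPM across skin Ebf2+ 1 to 3, 293, 244 and 61 CPM across skin Ebf2- 1 to 3 and 372, 342, 657 and 398 CPM across bone marrow 1 to 4. The lowest levels were those of the skin libraries numbered 3, and bone marrow was above every skin library but skin Ebf2+ 2. Per kilobase of exon its mean level was 76.7, 56.1 and 124 CPM in skin Ebf2+, skin Ebf2- and bone marrow. Cdkn1b (p27) ranged from 2.43 to 53.8 CPM in skin and from 12.2 to 58 CPM in bone marrow. Cdkn2c (p18, an inhibitor of Cdk4 and Cdk6) ranged from 0.414 to 21.2 CPM in skin and from 2.15 to 16 CPM in bone marrow. None of the 3 passed in any comparison (edgeR adjusted p 0.566 or above). Immediate early genes, which respond to cell handling, summed to 18222 to 32109 CPM over skin Ebf2+, 15471 to 21678 CPM over skin Ebf2- and 12654 to 27961 CPM over bone marrow, and their part in the Cdkn1a levels was not tested.

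D-type cyclins, which carry growth signals to Cdk4 and Cdk6, had reads in every library. Ccnd2 stood at 79.7, 118 and 79.2 CPM across skin Ebf2+ 1 to 3, 48.9, 63.5 and 39.6 CPM across skin Ebf2- 1 to 3 and 41.4, 189, 129 and 40.5 CPM across bone marrow 1 to 4. Skin Ebf2+ was above skin Ebf2- in each library, and bone marrow 2 and 3 lay far above bone marrow 1 and 4. Summed per kilobase of exon, the 3 D cyclins stood at 25.2, 19.1 and 31.3 CPM across skin Ebf2+ 1 to 3, 21.5, 13.6 and 21.3 CPM across skin Ebf2- 1 to 3 and 27.4, 34.3, 28.2 and 27.3 CPM in bone marrow 1 to 4. Bone marrow 2 had the highest sum and skin Ebf2- 2 the lowest, and the make-up differed between libraries of the same group. Ccnd3 took 43.5 and 58% of the sum in the skin libraries numbered 3 and 12 and 5.34% in bone marrow 2 and 3. Ccnd2 took 65.8% in skin Ebf2+ 2, 58.6% in bone marrow 2 and 16.1 and 15.8% in bone marrow 1 and 4. Ccnd1 was lower in skin Ebf2+ (46, 17.3 and 43.5 CPM) than in bone marrow (68.8, 47.5, 61.2 and 67.5 CPM) without overlap, and did not pass (edgeR adjusted p = 0.575). All 3 D cyclins share exon bases with genes on the opposite strand (Ccnd1 with LTO1, Ccnd2 with 9330179D12Rik and Gm43126, Ccnd3 with Bysl).

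**Figure D5:**
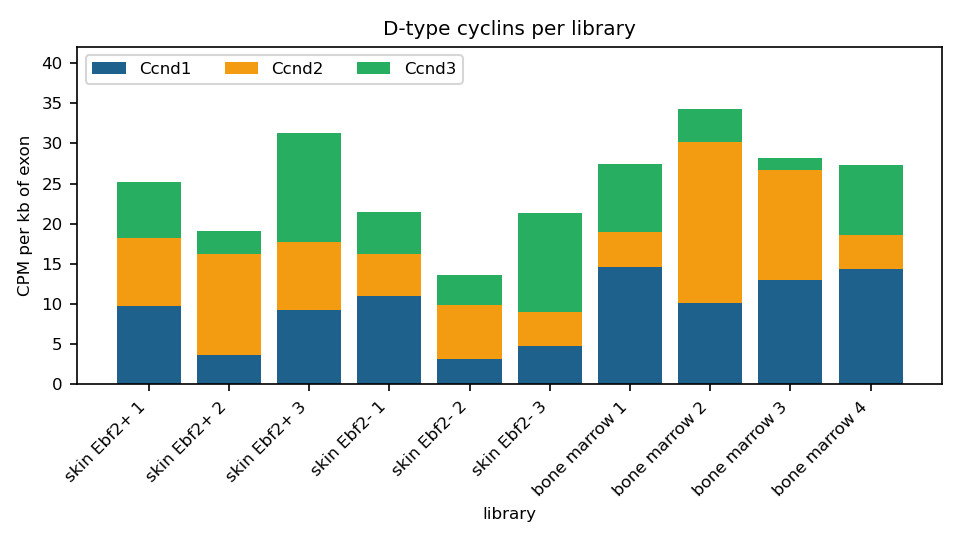
Summed level of the D-type cyclins per library in CPM per kilobase of exon (bar height), split into Ccnd1, Ccnd2 and Ccnd3. Bars run from 13.6 in skin Ebf2- 2 to 34.3 in bone marrow 2, with Ccnd2 at 65.8% of the bar in skin Ebf2+ 2 and Ccnd3 at 58% in skin Ebf2- 3.

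Among the kinases, Cdk4, the partner of the D cyclins, stood at 91.3, 34.9 and 114 CPM across skin Ebf2+ 1 to 3, 54.4, 50.5 and 109 CPM across skin Ebf2- 1 to 3 and 81.7, 54.3, 15.2 and 83.4 CPM across bone marrow 1 to 4. Its highest values were in the skin libraries numbered 3 and its lowest in bone marrow 3. Cdk4 shares 641 exon bases with Tspan31 on the opposite strand, so part of its reads may belong to that gene. Cdk2, which drives S phase with cyclins E and A, stood at 0.465, 0.436 and 20.9 CPM in skin Ebf2+ 1 to 3, with 4 and 5 reads in libraries 1 and 2, and at 12.9, 16.8 and 18 CPM in skin Ebf2-. Cdk1, the kinase of mitosis, had 0 reads in 4 libraries and at most 4.86 CPM, in skin Ebf2+ 3, with 2.67 CPM in bone marrow 3. Cdk6, the second partner of the D cyclins, was highest in skin Ebf2- 2 at 15.3 CPM. None of these CDKs passed in a comparison (edgeR adjusted p 0.665 or above).

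E2f1, the factor that switches on S phase genes, stood at 5.58, 0.348 and 22.4 CPM across skin Ebf2+ 1 to 3, 12.9, 2.07 and 37.9 CPM across skin Ebf2- 1 to 3 and 0.881, 5.22, 6.43 and 0.951 CPM across bone marrow 1 to 4. The skin libraries numbered 3 held its highest levels, at 22.4 and 37.9 CPM, and skin Ebf2+ 2 and bone marrow 1 and 4 were below 1 CPM. Of the E cyclins, Ccne1 had 0 reads in 4 libraries and stood at 6.19 CPM in bone marrow 3. Its values were at most 2.43 CPM elsewhere.

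Of the replication genes, Pcna, the sliding clamp of the DNA polymerases, stood at 92, 25.1 and 28.2 CPM across skin Ebf2+ 1 to 3, 54.2, 66.6 and 25.2 CPM across skin Ebf2- 1 to 3 and 63, 56.5, 129 and 59.8 CPM across bone marrow 1 to 4. Bone marrow 3 was highest, and the 3 groups overlapped. Mcm4, a helicase subunit, stood at 15.1, 104 and 41.9 CPM across skin Ebf2+ 1 to 3, 24.3, 16.4 and 34.9 CPM across skin Ebf2- 1 to 3 and 37.4, 30.4, 40.6 and 33.8 CPM across bone marrow 1 to 4. The 6 subunits Mcm2 to Mcm7 form 1 helicase, yet skin Ebf2+ 2 held the highest Mcm3 and Mcm4 levels of the 10 libraries (62.3 and 104 CPM) with 4 reads of Mcm2 and 0 of Mcm6. Skin Ebf2+ 3 had at least 12.9 CPM of each of the 6. Mcm6 stood at 0, 0 and 17.6 CPM across skin Ebf2+ 1 to 3, 1.54, 37.6 and 13.3 CPM across skin Ebf2- 1 to 3 and 19.3, 24.6, 62.2 and 17.9 CPM across bone marrow 1 to 4. Mcm5 ran from 0 to 16.9 CPM and Mcm7, which shares exon bases with Ap4m1 and Cops6 on the opposite strand, from 2.74 to 23.9 CPM. Cdc6 and Cdc45, which load and start the helicase, ranged up to 9.81 and 6.15 CPM, and both were at 0 in skin Ebf2+ 1 and 2.

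Of the enzymes that supply DNA precursors, Rrm1, the large subunit of ribonucleotide reductase, stood at 3.37, 69.5 and 42.1 CPM across skin Ebf2+ 1 to 3, 24.4, 34.4 and 38.8 CPM across skin Ebf2- 1 to 3 and 15.5, 20.7, 57.6 and 15.4 CPM across bone marrow 1 to 4. Its small subunit Rrm2, made mainly in S phase, stood at 2.09, 0 and 10.3 CPM across skin Ebf2+ 1 to 3, 8.27, 2.35 and 8.64 CPM across skin Ebf2- 1 to 3 and 3.77, 9.61, 11.6 and 3.80 CPM across bone marrow 1 to 4. Skin Ebf2+ 1, with the highest Tyms level of any library, held the lowest Rrm1 level of any and less Rrm2 than skin Ebf2+ 3. Per kilobase of exon, Tyms averaged 10.9, 2.27 and 0.355 CPM in skin Ebf2+, skin Ebf2- and bone marrow, and Rrm1 3.48, 2.95 and 2.48 CPM.

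Top2a, a marker of dividing cells that untangles DNA, stood at 0, 0.261 and 6.82 CPM across skin Ebf2+ 1 to 3, 22.8, 27 and 5.34 CPM across skin Ebf2- 1 to 3 and 7.39, 7.32, 14.5 and 5.35 CPM across bone marrow 1 to 4. Skin Ebf2- 1 and 2 were its highest libraries, as for Mki67. Ccna2, cyclin A2 of S phase and G2, stood at 0.349, 0 and 9.73 CPM across skin Ebf2+ 1 to 3, 15.1, 13.1 and 5.18 CPM across skin Ebf2- 1 to 3 and 0.147, 4.24, 2.28 and 0.150 CPM across bone marrow 1 to 4. Skin Ebf2- was above every bone marrow library, and skin Ebf2+ 1 and 2 had 3 and 0 reads. It shares exon bases with Exosc9 on the opposite strand. Ccnb1 and Ccnb2, the B cyclins of mitosis, spanned 0 to 7.06 CPM over skin Ebf2+, 1.10 to 13.9 CPM over skin Ebf2- and 0 to 2.88 CPM over bone marrow. The pseudogene Ccnb1-ps was also in the table, with at most 3.29 CPM, so reads of Ccnb1 are uncertain as well.

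Of the checkpoint and ubiquitin ligase genes, Cdc20, which activates the anaphase-promoting complex, stood at 15, 0 and 5.80 CPM across skin Ebf2+ 1 to 3, 7.46, 2.55 and 7.70 CPM across skin Ebf2- 1 to 3 and 0.0489, 2.24, 8.08 and 0 CPM across bone marrow 1 to 4. Skin Ebf2+ 1 held the highest level, although Bub1, Bub1b and Ube2c had 0 reads there. Ube2c, the ubiquitin-conjugating enzyme of that complex, was highest in skin Ebf2- 1 at 20.8 CPM, and it shares exon bases with Tnnc2 on the opposite strand. Bub1b, the checkpoint protein BubR1, stood at 0, 0 and 6.75 CPM across skin Ebf2+ 1 to 3, 0.805, 5.73 and 4.40 CPM across skin Ebf2- 1 to 3 and 0.196, 2.93, 5.29 and 0 CPM across bone marrow 1 to 4.

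The 9 spindle and kinetochore genes summed to 2.09, 4.53 and 34.6 CPM across skin Ebf2+ 1 to 3, 56.2, 73.7 and 26.7 CPM across skin Ebf2- 1 to 3 and 3.57, 24.3, 23.1 and 3.10 CPM in bone marrow 1 to 4. Skin Ebf2+ 1 and 2 and bone marrow 1 and 4 were thus below 5 CPM in sum, and the other 6 libraries above 20 CPM. Kif11, the motor that separates the spindle poles, stood at 0, 1.83 and 3.84 CPM across skin Ebf2+ 1 to 3, 19.4, 7.94 and 2.12 CPM across skin Ebf2- 1 to 3 and 0.245, 5.07, 0.811 and 0.250 CPM across bone marrow 1 to 4. Its highest values were in skin Ebf2- 1 and 2 and in bone marrow 2. Cenpe, a motor of the kinetochore, was highest in skin Ebf2- 2 (16.2 CPM), followed by bone marrow 2 (12.4 CPM). The kinases Aurka, Aurkb and Plk1 reached at most 7.76 CPM. Tpx2, which activates Aurora A on the spindle, stood at 1.74, 0 and 3.76 CPM against 8.27, 5.73 and 5.58 CPM within skin, without overlap (edgeR adjusted p = 0.999856). The motor Kif20a stayed at or below 5.29 CPM, and it shares 1271 exon bases with Cdc23 on the opposite strand.

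Other genes of the pathway, from 5 lists of 126 genes of which 123 were in the table, were measured in the same fits. None passed edgeR's adjusted p of 0.05 in any of the 3 comparisons, and at an unadjusted p of 0.05 edgeR called 1 of 114 tested within skin (0.877% against 2.55% of all genes). In skin Ebf2+ and skin Ebf2- against bone marrow it called 11 and 12 of 121 at that threshold (9.09% against 14.6% of all genes, and 9.92% against 12.2% of all genes), shares below the background in all 3 comparisons. Of 42 other S phase genes, 27 of 39 tested had negative values within skin (median log2 fold change -0.70), and 31 of 42 had positive ones in skin Ebf2- against bone marrow (median 0.57). Of 48 other G2 and M phase genes, 34 of 43 tested were negative within skin (median -0.94). In skin Ebf2- against bone marrow 41 of 47 were positive (median 1.55). In skin Ebf2+ against bone marrow, 22 of 42 S phase genes and 34 of 47 G2 and M phase genes had positive values. Of the RB and E2F family, 8 of 16 were positive within skin, 10 of 16 in skin Ebf2+ and 10 of 16 in skin Ebf2- against bone marrow. For p53 targets the counts were 7 of 13, 5 of 13 and 5 of 13, and for other CDK inhibitors 1 of 3, 1 of 3 and 1 of 3. Of the 48 G2 and M phase genes, 27 and 28 had 0 reads in skin Ebf2+ 1 and 2, and 27 in bone marrow 4. Of all genes, 14.9, 16.8 and 13.6% were at 0 in these libraries. Bone marrow 1, almost the same in its counts as bone marrow 4, had 9 of these G2 and M phase genes at 0, and 10.2% of all genes. Medians over all genes were 0.01 within skin and 0.06 in skin Ebf2- against bone marrow.

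Pttg1, securin, an inhibitor of sister chromatid separation until anaphase, ran against its list. It stood at 0, 10.9 and 5.10 CPM across skin Ebf2+ 1 to 3, 0.805, 1.59 and 2.98 CPM across skin Ebf2- 1 to 3 and 156, 46.3, 105 and 154 CPM across bone marrow 1 to 4. Each skin library was below each bone marrow library, and the fitted log2 difference was -4.43 ± 1.17 in skin Ebf2+ (SE; edgeR adjusted p = 0.101) and -6.01 ± 1.27 in skin Ebf2- (edgeR adjusted p = 0.0538). DESeq2 called both (adjusted p = 0.000422 and 2.53e-07), and over all alternatives the adjusted p ran from 0.000422 to 0.525 and from 2.53e-07 to 0.489. Strain differs with tissue here and cannot be told apart from it.

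Other genes with the lowest p of a list did not pass. Pola2, a subunit of DNA polymerase alpha, stood at 12.6, 163 and 20.2 CPM in skin Ebf2+ 1 to 3 against 0.147, 4.93, 9.76 and 0 CPM in bone marrow (4.13 ± 1.48, SE; edgeR adjusted p = 0.204), with skin Ebf2+ 2 far above the others. Within skin its log2 fold change was 2.29 ± 1.02 (edgeR adjusted p = 0.999856). Lin9, a MuvB core protein, stood at 44.4, 16.8 and 3.92 CPM against 2.49, 5.32 and 1.96 CPM within skin (2.73 ± 1.15; edgeR adjusted p = 0.999856). Mybl2, a transcription factor of G2 genes, was below 3 CPM in every library but skin Ebf2- 2, at 14.2 CPM. The retinoblastoma gene Rb1 averaged 65.5 ± 53 CPM (SD, n = 3) against 22.8 ± 7.20 CPM (SD, n = 4) in skin Ebf2+ and bone marrow (log2 difference 1.53 ± 0.65, edgeR adjusted p = 0.293). E2f4, an E2F factor of quiescent cells, stood at 25.2, 259 and 41.2 CPM in skin Ebf2- against 24.3, 24.4, 25.2 and 26.7 CPM in bone marrow, a difference set by skin Ebf2- 2 (edgeR adjusted p = 0.332). Of the p53 targets, Trp53inp1 stood at 13.9, 12.9 and 30.5 CPM in skin Ebf2+ against 106, 37.4, 51.4 and 96.4 CPM in bone marrow, without overlap (-1.93 ± 0.66; edgeR adjusted p = 0.183). In skin Ebf2- its value was -1.51 ± 0.64 (adjusted p = 0.358). Eda2r, a receptor among the p53 targets, stood at 20.6, 4.44 and 13.2 CPM against 4.17, 1.66 and 4.40 CPM within skin (edgeR adjusted p = 0.999856). The inhibitor Cdkn2b (p15) had 17.6 CPM in skin Ebf2+ 3 and at most 2.36 CPM in any other library (edgeR adjusted p 0.519 or above in the 3 comparisons).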

How the data were processed

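Per the labels' protocols, cDNA of sorted cells was made with a SMART-Seq v4 kit and turned into Nextera XT libraries with single-end reads of 75 bp. The deposited values used here are raw counts per Entrez gene, made by the authors with featureCounts from STAR alignments on the GRCm38 primary assembly, per the file headers. STAR 2.6.1d is named in the submitters' processing notes. The lowest gene total in the table is 21 counts, and no source used here states the filter. Normalized values in 10 other columns were left aside. Samples were matched to columns by name, with the number after S taken as the replicate number, a link the labels do not state.

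The test was edgeR 4.0.16 under R 4.3.3 (quasi-likelihood test, TMM scaling, filterByExpr, Benjamini-Hochberg adjustment over all genes tested, two-sided, adjusted p of 0.05), in the 6 skin libraries for the comparison within skin and in all 10 libraries for those with bone marrow. The steps were tested on simulated data with changes set only in genes of higher counts, so recovery for genes of few reads was not tested. An SE is the log2 fold change divided by the square root of the test's F. Levels are CPM with TMM scaling. Exon lengths are GENCODE vM21 unions. Alternatives included DESeq2 1.42.0, limma-voom (3.58.1), other scalings and filters, leaving out libraries and a replicate block. The genes, lists and alternatives were chosen with earlier results of these data known. Values in every library are given for genes that passed, the 3 lowest p of each comparison and the gene of each role with the highest mean of the 3 group means in CPM, not corrected for length. That gene is not the highest of its role in every group. Ccnd1, Mcm4, Mcm6, Rrm2, Top2a, Tpx2, Bub1b, Cdk1, Cdk2 and others were added after their values were seen. A gene of the pathway lists that this rule names is not reported here.

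Deviations from the group means correlated at 0.192, 0.234 and 0.624 between the skin libraries numbered 1, 2 and 3, so the numbers were taken to pair the skin samples. The unequal pairs of numbers 1 and 2 reached 0.159 and 0.156, little below the equal ones. Only number 3 stood out, so the pairing of numbers 1 and 2 remains an assumption. Skin and bone marrow libraries of equal number come from different mice.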

Additional observations from a re-analysis of the deposited data

Results flagged for a closer look

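In bone marrow, the one group of 4 libraries, 1 library lay far above the other 3 (a gap to the nearest library, as a share of the whole range, above Dixon's 95% critical value) for 16 of the 43 division genes. Chance alone gives such a gap, above or below, in about 1 in 20 groups of independent values. Bone marrow 1 and 4 nearly coincide. Over all 14995 genes, 16.6% had 1 library that far above or below the other 3, against 37.2% of the division genes. The gaps of the division genes were all upward. The share of all genes with an upward gap was not determined, and the difference was not tested. Bone marrow 3 stood apart for 13 genes, given as its level against that of the next library: Ccne1 (6.19 against 0.10 CPM), Ccnb1 (1.02 against 0.0489 CPM), Ccnb2 (2.88 against 0.293 CPM), Cdk1 (2.67 against 0.0488 CPM), Mcm5 (13 against 1.80 CPM), Mcm6 (62.2 against 24.6 CPM) and Pcna (129 against 63 CPM). The same held for Rrm1 (57.6 against 20.7 CPM), Ube2c (4.33 against 0.439 CPM), Aurkb (5.71 against 0.439 CPM), Birc5 (1.65 against 0.440 CPM), Cenpf (3.58 against 0.350 CPM) and Cdkn2c (16 against 4.10 CPM). Bone marrow 2 stood apart for Cdk6 (4.63 against 0.631 CPM), Kif11 (5.07 against 0.811 CPM) and Cenpe (12.4 against 1.26 CPM). Over all genes, bone marrow 3 held the highest value of the group for 33.7%, and for 67.4% of the division genes. Bone marrow 3 is also the deepest library, at 39422062 counts.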

How the results depend on the processing

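Within skin the count of division genes called stayed at 0 in 16 of 17 alternatives and was 3 with DESeq2 and a replicate block, an alternative added after the data were seen. Left out one at a time, libraries gave 0 to 0 called. In skin Ebf2+ against bone marrow the count of 1 became 0 with limma-voom, a replicate block, bone marrow 1 and 4 summed, bone marrow 4 only, or without bone marrow 1 and 4 (added later). It was 2 without the skin libraries numbered 3, and 0 to 2 with 1 library left out. In skin Ebf2- against bone marrow the count of 0 became 2 with DESeq2 and 1 in a fit of the 2 groups only, and was 0 with any 1 library left out. Bub1 in skin Ebf2+ against bone marrow turned to -2.07 without skin Ebf2+ 3 and -2.11 without the skin libraries numbered 3. Cdkn2b turned within skin to -1.39 with limma-voom, -4.54 without skin Ebf2+ 3, -4.12 without the skin libraries numbered 3, -2.16 with a replicate block and -2.58 with DESeq2 and the block. Against bone marrow in skin Ebf2+ it turned to -3.20 and -3.20 without the former and the latter. Left-out libraries gave -4.54 to 2.53 for Cdkn2b within skin, -3.20 to 3.94 for it and -2.07 to 6.20 for Bub1 in skin Ebf2+ against bone marrow. The cause was not tested. Of the other single-gene values, 411 kept their direction and side of the threshold, 9 passed newly and 8 no longer passed. Over all genes the calls within skin were 0, and 116 with DESeq2, 369 with DESeq2 and the block, 8 with edgeR and the block and 21 with limma-voom and the block. They were 134 in skin Ebf2+ and 106 in skin Ebf2- against bone marrow. With DESeq2 they were 1105 and 796, with limma-voom 223 and 293, in fits of 2 groups 76 and 262, with the block 67 and 69, and without the skin libraries numbered 3 237 and 81. With bone marrow 1 and 4 summed they were 51 and 47, without both 8 and 13, with bone marrow 4 only 1 and 2, and with 1 library left out 44 to 200 and 34 to 58. For genes of a few reads, depth limits what can be seen: 0 reads allow up to 0.349 CPM in skin Ebf2+ 1.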

Other observations

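The skin libraries numbered 3 lay on the same side of the other 4 skin libraries for 11 division genes. Both were above them for 9 genes (Ccnd3, Ccne1, Ccnb1, Cdk2, Cdk4, Mcm2, Rrm2, Kif20a, E2f1) and below for 2 (Cdkn1a and Cdkn1b), where 21.7% and 17% of all genes did so. Rn45s, a precursor of ribosomal RNA, held 0.593% and 0.170% of the counts in these libraries, against at least 3.04% in each of the other 8 libraries. Among the genes with reads in every library of a group, the highest library exceeded the lowest by a median of 6.90-fold in skin Ebf2+ (19 genes), 3.58-fold in skin Ebf2- (40 genes) and 4.75-fold in bone marrow (29 genes). Mcm7 was the steadiest in skin Ebf2- (1.04-fold) and Mki67 the most uneven (35.5-fold).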
